A study of Drosophila melanogaster with 2 samples.

Results

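The peaks described here are the binding sites of CG6813 whose summit lay within 500 bp of a transcription start site (TSS) and whose nearest TSS belonged to a gene that encodes no protein. They were taken from the list of 5012 reproducible peaks that the authors deposited for a chromatin immunoprecipitation sequencing (ChIP-seq) experiment in Drosophila melanogaster. The rule kept 211 of the 5012 peaks (4.21%, exact 95% binomial interval 3.67 to 4.8%). Of all 2033 summits within 500 bp of a TSS they made up 10.4%, while 1820 lay nearest to a protein-coding start and 2, at equal distance from both kinds, were left out. The chromatin came from whole embryos of both sexes, 0 to 24 h old, of the CG6813-GFP strain, a transgenic line with an insertion that expresses CG6813 joined at its C-terminus to GFP. The immunoprecipitation used an antibody against GFP. There was 1 group with 2 biological replicates, numbered 2 and 3 in the labels, and the chromatin had been sheared by sonication. No control library was analysed here. The embryos mix all cell types and many stages, so a peak does not say in which cells CG6813 was bound, and the tagged protein comes from a transgene whose promoter the labels do not give. Depth is unknown because the lists hold no read counts. With 1 group there was no comparison of conditions, and differences between sets of peaks are given as values with intervals that cover counting error only and were not tested.

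CG6813 is a zinc finger protein of the ZAD family, a family of DNA-binding proteins that is large in insects. The noncoding genes at these peaks are made in different ways. Long noncoding RNAs (lncRNAs) are made by RNA polymerase II from promoters of their own, and antisense lncRNAs run against another gene. Transfer RNAs (tRNAs) are made by RNA polymerase III, which is recruited by sequences inside the gene, the A box and the B box. MicroRNAs (miRNAs) and most small nucleolar RNAs (snoRNAs) of the fly are cut out of longer transcripts, so the annotated 5′ end of such a gene need not be a promoter.

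The DNA at 10 of the peaks is shown to set strong sites beside well-known RNA genes. Each line gives 201 bases of the dm6 genome centred on the summit, which is base 101, read 5′ to 3′ on the strand of the RNA gene. Capitals mark a match, on either strand, to 1 of the 8 short sequences that were searched. The first 5 are the strongest lncRNA sites other than lncRNA:CR44339, which is not shown, the next 2 are tRNA genes, the first of them the strongest tRNA site and the second a gene with its B box letters in the window, and the last 3 are the genes of 7SK, Hsr-omega and flamenco. The windows to show were chosen after values were seen, the tRNA with the B box and flamenco outside the rule for naming genes.
lncRNA:CR31840, chr2L:14023974-14024174, minus strand: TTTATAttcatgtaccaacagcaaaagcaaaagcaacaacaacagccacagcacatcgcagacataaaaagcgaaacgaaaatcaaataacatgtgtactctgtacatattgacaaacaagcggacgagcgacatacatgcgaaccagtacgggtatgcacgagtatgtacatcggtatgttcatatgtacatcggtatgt
lncRNA:CR31044, chr3R:29214352-29214552, plus strand: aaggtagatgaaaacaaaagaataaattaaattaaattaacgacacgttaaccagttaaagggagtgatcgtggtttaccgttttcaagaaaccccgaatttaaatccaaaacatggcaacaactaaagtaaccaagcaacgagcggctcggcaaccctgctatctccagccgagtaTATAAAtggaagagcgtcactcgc
lncRNA:CR44149, chr2L:9568628-9568828, minus strand: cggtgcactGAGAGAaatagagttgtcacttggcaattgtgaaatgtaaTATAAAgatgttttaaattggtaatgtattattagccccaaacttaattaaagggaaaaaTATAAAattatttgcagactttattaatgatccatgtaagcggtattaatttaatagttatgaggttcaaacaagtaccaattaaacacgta
lncRNA:CR44619, chrX:12752262-12752462, plus strand: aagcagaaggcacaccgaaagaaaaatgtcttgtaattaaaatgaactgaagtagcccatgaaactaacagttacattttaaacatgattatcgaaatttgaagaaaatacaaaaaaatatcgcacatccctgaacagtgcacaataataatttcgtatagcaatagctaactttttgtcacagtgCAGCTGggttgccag
lncRNA:CR46036, chr3R:17700480-17700680, plus strand: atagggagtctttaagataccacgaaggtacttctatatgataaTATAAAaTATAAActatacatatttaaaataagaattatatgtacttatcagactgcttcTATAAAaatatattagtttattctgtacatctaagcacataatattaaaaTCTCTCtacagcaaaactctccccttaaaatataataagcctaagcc
tRNA:Tyr-GTA-1-8, chr3R:8669258-8669458, minus strand: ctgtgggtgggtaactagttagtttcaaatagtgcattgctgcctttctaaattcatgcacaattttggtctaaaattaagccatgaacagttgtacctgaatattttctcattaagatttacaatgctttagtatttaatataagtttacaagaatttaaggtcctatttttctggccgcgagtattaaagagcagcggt
tRNA:Ser-AGA-2-4, chr2L:3172944-3173144, minus strand: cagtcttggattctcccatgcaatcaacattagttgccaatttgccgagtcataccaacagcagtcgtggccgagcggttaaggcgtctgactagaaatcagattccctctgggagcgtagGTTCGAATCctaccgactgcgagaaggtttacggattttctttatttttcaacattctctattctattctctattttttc
snRNA:7SKa, chr3R:7474683-7474883, minus strand: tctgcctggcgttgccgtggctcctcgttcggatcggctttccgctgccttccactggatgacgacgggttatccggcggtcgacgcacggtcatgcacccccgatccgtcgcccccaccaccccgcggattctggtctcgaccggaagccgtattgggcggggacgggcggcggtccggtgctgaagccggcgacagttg
lncRNA:Hsromega, chr3R:21296265-21296465, plus strand: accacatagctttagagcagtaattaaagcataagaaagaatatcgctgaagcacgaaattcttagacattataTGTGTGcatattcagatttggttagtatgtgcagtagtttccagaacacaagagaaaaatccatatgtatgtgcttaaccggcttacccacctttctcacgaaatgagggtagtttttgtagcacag
lncRNA:flam, chrX:21631616-21631816, plus strand: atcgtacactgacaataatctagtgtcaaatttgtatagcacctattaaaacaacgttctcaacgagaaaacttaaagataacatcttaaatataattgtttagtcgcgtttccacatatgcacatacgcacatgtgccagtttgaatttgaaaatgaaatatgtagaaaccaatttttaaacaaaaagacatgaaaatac

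The windows differed in composition. The G and C content was 68.7% at snRNA:7SKa, 40.3% at lncRNA:CR31840 and at lncRNA:CR31044, and 25.9% at lncRNA:CR46036. The median was 38.3% over all 211 peaks and 37.8% over the peaks at coding starts. The letters TATAAA occur in the windows of lncRNA:CR31840 (at base 1, on the other strand), lncRNA:CR31044 (at base 178), lncRNA:CR44149 and lncRNA:CR46036. They are in neither the window of lncRNA:CR44619, which holds CAGCTG at base 187, nor that of lncRNA:CR44339, which holds none of the 8. No searched sequence occurs in the windows of tRNA:Tyr-GTA-1-8, snRNA:7SKa and lncRNA:flam either.

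Most of the peaks lay at lncRNA genes. The nearest gene was an lncRNA for 141 peaks (66.8%, 60 to 73.1%), and 133 of these lay at genes that carry only a CR number in place of a name. Antisense lncRNAs accounted for 27 peaks (12.8%, 8.6 to 18.1%), tRNAs for 22 (10.4%, 6.65 to 15.4%) and miRNAs for 10 (4.74%, 2.3 to 8.54%). Among the 5012 strongest regions of replicate 3 alone there were 35 tRNA (15%) and 16 miRNA (6.87%) sites, and among those of replicate 2 alone 17 (8.67%) and 9 (4.59%). The remaining peaks lay at 4 snoRNA genes, 3 pseudogenes, 2 small nuclear RNA (snRNA) genes and 2 other small RNA genes, and none lay at a ribosomal RNA gene. The 211 peaks had 199 different nearest genes, and 12 genes had 2 peaks each, with summits 199 to 882 bp apart. At asRNA:CR46044 both peaks matched the same region of replicate 3, so these peaks are not independent. At several of these genes, lncRNA:Hsromega and asRNA:CR44293 among them, the regions of both peaks overlapped, so they need not be separate sites. The pooled list from which the reproducible peaks were drawn held 30000 regions. Among its 24988 regions below the threshold, 837 had a noncoding start nearest, and 63.4% of these lay at lncRNA, 8.84% at antisense lncRNA and 14.2% at tRNA genes. For comparison, lncRNA genes made up 51.9%, antisense lncRNA genes 13.1% and tRNA genes 7.58% of the 3828 annotated noncoding genes.

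Counted by gene, CG6813 peaks were found at 274 of the 3828 noncoding genes (7.16%, 6.36 to 8.02%), against 13.1% of all 17796 genes and 2063 of 13968 protein-coding genes (14.8%, 14.2 to 15.4%). A gene was counted here when any reproducible summit lay within 500 bp of one of its starts, whichever start was nearest. Of the 274 genes, 183 had a peak with no coding start within 500 bp, and 91 had only peaks that a coding start shared. The share was 7.75% (6.61 to 9.01%) for 1987 lncRNA genes and 8.55% (6.26 to 11.3%) for 503 antisense lncRNA genes, of which 27 of the 43 with a peak had only a shared one. It was 12.1% (8.55 to 16.4%) for 290 tRNA genes and 7.06% (4.31 to 10.8%) for 269 snoRNA genes, of which 11 of the 19 with a peak had only a shared one. The 35 tRNA genes with a peak came from 26 peaks, so these genes are not independent, while the interval treats them as if they were. The share was 5% (2.69 to 8.4%) for 260 miRNA genes and 1.82% (0.67 to 3.92%) for 330 pseudogenes. None of 99 ribosomal RNA genes had a peak, which allows a share of up to 3.03%, but only 1 of them had even a region of the pooled list.

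**Figure D1:**
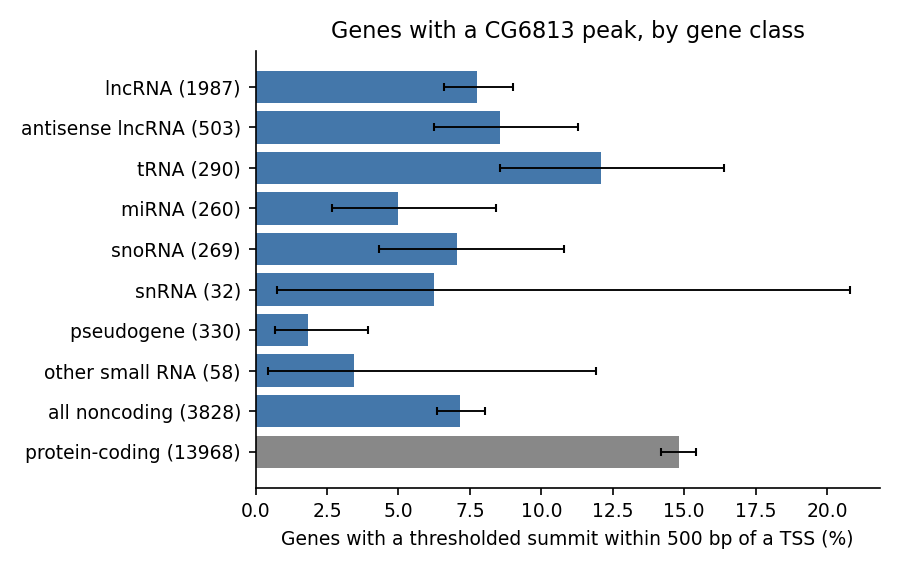
Share of the genes of each class with a reproducible CG6813 summit within 500 bp of a start, in percent, with exact 95% binomial intervals as lines and the number of genes in brackets. Ribosomal RNA genes (0 of 99) are not drawn. The noncoding classes reach at most 12.1% (tRNA), and protein-coding genes are at 14.8%.

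The tRNA genes held many weak regions. A pooled region of any strength lay within 500 bp of 61.7% of the tRNA genes, of 41.4% of the coding genes and of 32.5% of the lncRNA genes. A single region can count for several tRNA genes, since 51% of them had another tRNA start within 500 bp. Of the genes with such a region, 19.6% of the tRNA genes, 35.7% of the coding genes and 23.9% of the lncRNA genes had a reproducible peak. The share of tRNA genes with a peak depended on the replicate. Among the 5012 strongest regions of replicate 3 alone it was 20%, and among those of replicate 2 alone it was 10.3%.

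The strongest site lay in lncRNA:CR31840 (FBgn0051840, 2L, 14023722 to 14024099, minus strand), 25 bp past its start. Its signal, a value per region in the units of the authors' peak caller, was 1864 in replicate 2, 957 in replicate 3 and 2789 in the pooled list. It ranked 5 among all pooled regions, 6 in replicate 2 and 2 in replicate 3, and the nearest coding start was 2927 bp away. The next was 110 bp upstream of lncRNA:CR31044 (FBgn0051044, 3R, 29214562 to 29219667, plus strand), with 1349 in replicate 2, 442 in replicate 3 and 1794 in the pooled list. Its nearest coding start was 5720 bp away. Both sites thus stood far from any protein-coding promoter.

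The next sites in order of strength differed in their neighbourhood. The peak 149 bp upstream of lncRNA:CR44339 on 2R had a signal of 1209 in replicate 2, 386 in replicate 3 and 1589 pooled, and lay 4224 bp from a coding start. The peak 57 bp inside lncRNA:CR44149 on 2L had 916 in replicate 2, 404 in replicate 3 and 1323 pooled, and lay 162 bp from the start of brwl, a coding gene that runs the other way. At asRNA:CR45928 on 2R the signal was 1017 in replicate 2, 297 in replicate 3 and 1317 pooled. This summit was in an intron of ytr, 88 bp inside the antisense gene and 117 bp from the start of eIF6, which encodes a factor that binds the large ribosomal subunit.

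Among the rest of the 15 strongest, single sites stood out by their place. A peak at lncRNA:CR44619 on X (973 in replicate 2, 337 in replicate 3, 1305 pooled) lay 495 bp inside the gene, close to the limit of 500 bp. The peak at tRNA:Tyr-GTA-1-8 on 3R (871, 394 and 1272 in the same order) lay between the tRNA gene and the divergent start of CG8036. In an intron of osa, which encodes a subunit of the Brahma chromatin remodelling complex, the peak 161 bp upstream of lncRNA:CR46036 had 774 in replicate 2, 377 in replicate 3 and 1150 pooled, 13509 bp from the nearest coding start. Uhg4, a host gene whose introns release snoRNAs, had a peak 48 bp upstream with 686, 387 and 1075. The peak of lncRNA:CR42657 on X was 443 bp upstream, with 745, 297 and 1061.

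The last 5 of the 15 were weaker. The peak 163 bp upstream of mir-9378, in an intron of CG17124, had 529 in replicate 2, 332 in replicate 3 and 862 pooled. The peak of asRNA:CR44429 lay in an intron of gce, which encodes a juvenile hormone receptor, with 612, 209 and 813. At lncRNA:CR45541 on X the values were 519.6, 265 and 786, and at lncRNA:CR44676 on 3L they were 545, 212 and 766. The peak of lncRNA:CR43973, in an intron of Ctps, the gene of CTP synthase, had 478, 244 and 736. All 15 peaks were among the 5012 strongest regions of both replicates.

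Most peaks were found in both replicates at different scales. A region of both replicates lay within 200 bp of the summit for 208 of the 211 peaks, and the other 3 had none in replicate 3. The same was found for 4927 of all 5012 peaks. Each replicate list held 30000 regions, background included, so such a match is easily met. One of the 5012 strongest regions of each replicate lay within 200 bp of the summit for 143 peaks (67.8%, 61 to 74%), against 69.2% of all reproducible peaks. A further 35 were that strong in replicate 2 alone, 29 in replicate 3 alone and 4 in neither. This split is not given here for all peaks. The peaks had been picked by pooled signal, so these counts are a description. The signal of replicate 2 divided by that of replicate 3 had a median of 2.11 (quartiles 1.53 and 2.77, range 0.54 to 8.06), and of 2.19 over all peaks. The highest ratio was at lncRNA:CR43626, a gene chosen after its values were seen, with 281 in replicate 2 (rank 981) and 34.9 in replicate 3 (rank 11494).

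The ratio was lowest, by its median, in the small RNA classes. Its median was 2.18 at lncRNA, 2.22 at antisense lncRNA, 1.56 at miRNA and 1.5 at tRNA genes (quartiles 1.25 and 2.37), and 1.34 over the 4 snoRNA peaks. A lower ratio means relatively more signal in replicate 3. The median ratio was 2.39 for the peaks at noncoding starts among the 2506 strongest peaks. Pooled median signal was 193 at tRNA, 183 at miRNA, 223 at lncRNA and 276 at the 4 snoRNA peaks. Whether the class ratios follow signal strength was not tested. A better rank in replicate 3 than in replicate 2 was found for 15 of 22 tRNA peaks (68.2%), for 47.6% of the peaks at noncoding starts and for 42.8% of all peaks.

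**Figure D2:**
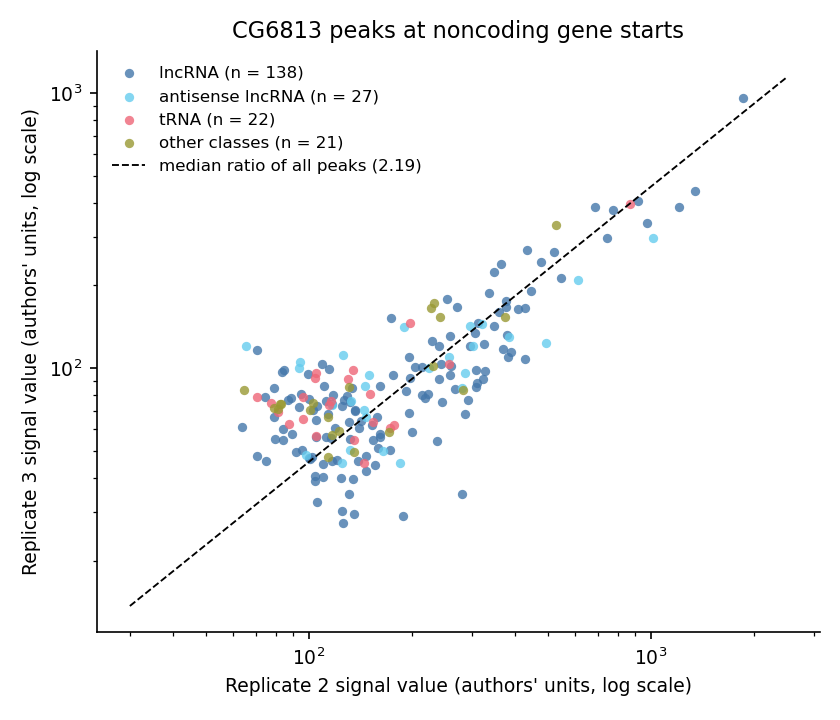
Signal value of each peak at a noncoding start in replicate 2 (horizontal) and replicate 3 (vertical), both in the authors' units on log scales, for the 208 peaks found in both, coloured by class. The dashed line is the median ratio of all reproducible peaks, 2.19. Many tRNA points lie above it, and lncRNA:CR31840 is the point at the upper right.

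Above the threshold, signal at noncoding starts was close to that at coding starts. Both groups passed the same cut, with a lowest pooled signal of 146 in each, so their medians leave out the weaker regions. Noncoding starts made up 10.4% of the summits within 500 bp of a start above the threshold and 14.5% of those below it. The pooled median was 219 (quartiles 173 and 387, range 146 to 2789) for the 211 peaks, 237 (179 and 402) for the 1820 at coding starts and 222 for the 2979 peaks over 500 bp from every start. In replicate 2 the medians were 147 at noncoding and 162 at coding starts, and in replicate 3 they were 78.7 and 85.1. The log2 difference of the medians, noncoding minus coding, was -0.13 in replicate 2 and -0.11 in replicate 3, with an SD of 0.02 (n = 2). Among the 2506 strongest of the 5012 peaks the difference was 0.08, so its sign depended on the set of peaks. The 100 strongest peaks held 8 at noncoding and 56 at coding starts, and the 500 strongest held 22 and 263. By class, the pooled median was 223 at lncRNA, 238 at antisense lncRNA, 193 at tRNA and 183 at miRNA genes.

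The limits of the rule fell inside a continuous range of values. The weakest members, at lncRNA:CR42651 and lncRNA:CR45748, had a pooled signal of 146 each, and the strongest noncoding start below the threshold, at lncRNA:CR44621, had 145. In distance, the outermost members were lncRNA:CR44619 at 495 bp and lncRNA:CR45277 at 496 bp. The first peaks left out lay 510 bp from lncRNA:CR44363 (signal 718), 511 bp from lncRNA:CR44628 and 512 bp from mir-277. These genes at the limits were chosen for their position there.

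A protein-coding start within 500 bp of the summit was present for 36 of the 211 peaks (17.1%, 12.2 to 22.8%). Of these, the coding start nearest to the summit was on the other strand and pointed away from the noncoding start (divergent) in 27. It was on the other strand and pointed toward the noncoding start (overlapping antisense) in 4, and had the same direction in 5. Only starts were compared, so the coding gene can still overlap the noncoding one through other transcripts. At E2f1 and BEAF-32, both counted as divergent, the summit lay in both genes. The peaks of asRNA:CR44293 at PCB fell in different groups. The summit lay between both starts in 16. The share was 16 of 141 (11.3%, 6.63 to 17.8%) for lncRNA and 11 of 27 (40.7%, 22.4 to 61.2%) for antisense lncRNA peaks, and 5 of 22 for tRNA peaks. Over all 211, the nearest coding start was a median of 2042 bp away (quartiles 736 and 4562), and for 109 peaks (51.7%) it was over 2000 bp away. The peaks with a coding start had a pooled median of 227 and those without one a median of 217.

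The coding partners of all 36 peaks were as follows. For lncRNA peaks they were brwl, Sin3A (the corepressor scaffold), mura, prtp, Ama, Chs2 (a chitin synthase), Cyt-b5 with Drat at 1 peak, FucTC, CG2187, CG5199 beside Uhg8, ftz-f1 (a nuclear receptor), Pdk1, CG6688, C15 (a homeobox gene), CG6770 and CG43894. For antisense lncRNA peaks they were eIF6, Reg-5, PCB (pyruvate carboxylase, with 2 peaks), RhoGEF2, MED4 (a Mediator subunit), E2f1 (a cell cycle transcription factor), CG31522, CG10433, Septin2 and BEAF-32 (an insulator protein). For tRNA peaks they were CG8036, CG13605, CG30122, CG8490 and Spag1. The miRNA mir-9370 had FucT6, and the snoRNA gene FBgn0263459 on 2R had CG13334. Of the pseudogenes, CR42875 had CG10068 and CR33222 had RpS6, a small ribosomal subunit protein gene.

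The antisense sites had values on both sides of the median. The third strongest of the class, 151 bp upstream of asRNA:CR43257 and between that start and the start of Reg-5, had 495 in replicate 2, 124 in replicate 3 and 616 pooled. The peak 26 bp inside asRNA:CR42254, in untranslated exon sequence of BEAF-32 and 32 bp from its start, had 98.3 in replicate 2, 48.4 in replicate 3 and 149 pooled. The peak 167 bp inside asRNA:CR46055, likewise in E2f1, had 126, 112 and 211. Both were chosen after their values were seen, and reads cannot be assigned to either of 2 starts this close.

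Most summits lay outside coding genes. No summit lay in coding sequence, which allows a share of up to 1.42%, 69 (32.7%) lay in introns of coding genes, 11 in untranslated exons and 131 (62.1%, 55.2 to 68.7%) outside coding genes. A coding gene held the summit for 29.1% (21.7 to 37.3%) of the lncRNA peaks, 74.1% (53.7 to 88.9%) of the antisense peaks and 40.9% of the tRNA peaks. It did so for 56.4% of the peaks at coding starts and for 73.9% of the peaks away from starts.

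At coding starts the summits sat just upstream, while at lncRNA starts they were spread. Of the 211 summits 122 (57.8%, 50.8 to 64.6%) lay upstream of the start, 81 inside the gene and 8 past its 3′ end, against 75.5% (73.5 to 77.5%) upstream at coding starts. A summit within 100 bp of the start was found for 28.4% of the 211 peaks, for 38.4% (36.1 to 40.6%) at coding starts, for 18.4% (12.4 to 25.8%) at lncRNA, for 48.1% (28.7 to 68.1%) at antisense lncRNA and for 54.5% (32.2 to 75.6%) at tRNA starts. The median distance was 230.0 bp at lncRNA, 120.0 bp at antisense lncRNA, 87 bp at tRNA and 137 bp at coding starts.

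**Figure D3:**
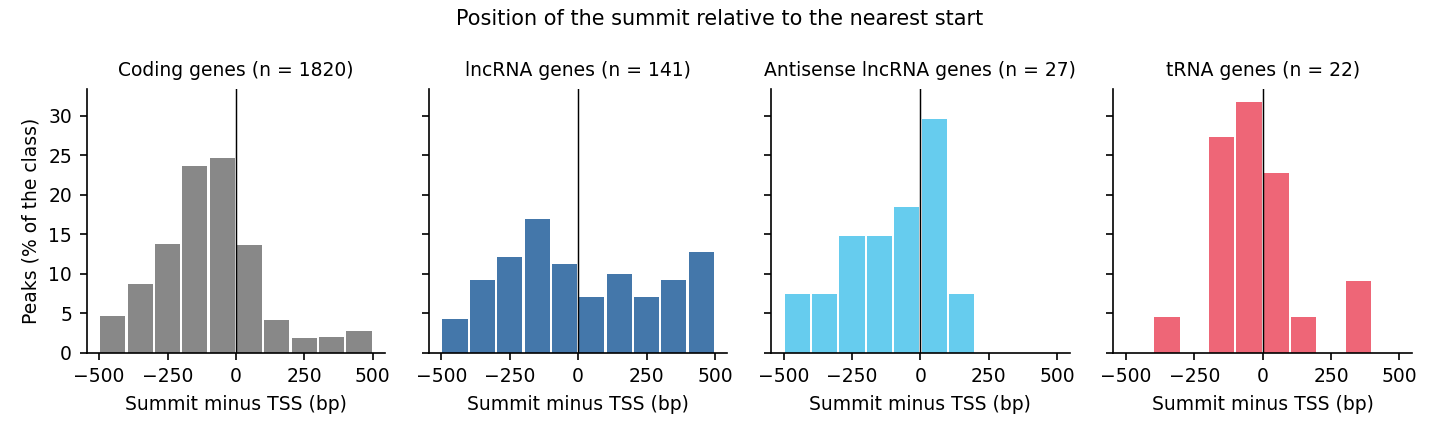
Position of the summit relative to the nearest start in bins of 100 bp, negative values upstream, as a percentage of the peaks of each class. At coding starts 24.7% of the summits fall in the bin just upstream of the start, at lncRNA starts 11.3% do and at tRNA starts 31.8%.

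Some of the 22 tRNA peaks had a single tRNA start nearby and some had several. For 12 peaks 1 tRNA start lay within 500 bp of the summit and for 10 there were more, up to 3. Within 5000 bp there were up to 7, and 3 peaks had only 1. Of all 290 tRNA genes, 51% had another tRNA start within 500 bp of their own and 73.8% within 5000 bp. On chromosome arm 2R lay 16 of the 22 (72.7%, 49.8 to 89.3%) and 98 of the 290 tRNA genes (33.8%). Most summits, 18, lay in the gene or within 200 bp upstream of it. The B box letters GTTCGANNC were found in the nearest gene for 13 peaks and in 160 of all 290 tRNA genes (55.2%). After tRNA:Tyr-GTA-1-8, the strongest were tRNA:Leu-TAA-2-1 (257 in replicate 2, 104 in replicate 3, 369 pooled) and tRNA:Arg-CCT-1-2 (198, 146 and 352). The remaining 19 had pooled signals of 151 to 252.

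Across the chromosome arms, 2R held 64 of the 211 peaks (30.3%, 24.2 to 37%), 18.5% of all peaks and 20.8% of the noncoding genes. The arms 3R, 2L, 3L and X held 50, 33, 33 and 31 (23.7, 15.6, 15.6 and 14.7%). Their shares of all peaks were 23.6, 18.8, 21.8 and 17.1% in the same order. Chromosome 4 and Y held none of the 211, where 34 and 90 noncoding genes are annotated. Chromosome 4 had only 10 reproducible peaks of any kind (0.2%) and Y had none. The absence there is thus not specific to noncoding genes.

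Of 78 listed noncoding genes, most of them characterised RNAs, 9 (11.5%) had a peak, against 7.16% of all noncoding genes and 13.1% of all genes, and 25 had a region of the pooled list. The list was drawn up with the peaks at lncRNA:CR31840 and lncRNA:Vinr known, so the share says nothing about such genes in general. Beside lncRNA:CR31840 and Uhg4, this held for the following genes. snRNA:7SKa, whose RNA holds the elongation factor P-TEFb inactive, had a peak 213 bp inside the gene with 227 in replicate 2, 166 in replicate 3 and 412 pooled. lncRNA:Hsromega, a heat-induced RNA that forms the omega speckles, had 2 peaks, whose regions overlapped. The stronger lay 238 bp inside the gene (389.7 in replicate 2, 115 in replicate 3, 503 pooled), and the other 56 bp upstream of another of its starts (102, 47.7 and 158). The U1 gene snRNA:U1:95Ca, whose RNA recognises 5′ splice sites, had a peak with 103, 74.6 and 176.

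The other listed genes had weak peaks. Uhg8 had 129 in replicate 2, 79.2 in replicate 3 and 198 pooled. lncRNA:Vinr had 93.7, 72.1 and 173, and lncRNA:yar, which lies between yellow and the achaete-scute genes, had 110.4, 40.3 and 160.5. A peak 366 bp past the annotated 5′ end of a mature RNA of mir-8 had 64.6, 83.7 and 149.6. These values were near the weakest accepted signal of 146. The dosage compensation gene lncRNA:roX1 had no region of the pooled list, and lncRNA:roX2 had one of 58.8, below the threshold. lncRNA:bxd, lncRNA:iab8, mir-1, mir-9a and mir-279 also had only regions below the threshold. The same held for RNaseMRP:RNA, mir-iab-4, mir-iab-8 and the genes snRNA:U1:95Cb, snRNA:U4:38AB, snRNA:U5:63BC, snRNA:U6:96Aa, snRNA:U6:96Ab, snRNA:U6:96Ac and snRNA:U12. The region at snRNA:U6:96Ab had 142, just under the weakest accepted signal.

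Among other members, lncRNA:flam had a peak 175 bp upstream of its start, with 223 in replicate 2, 80.8 in replicate 3 and 297 pooled. This gene, chosen after its values were seen, is the flamenco locus, a source of piRNAs that silence retrotransposons in somatic cells of the ovary. The strongest miRNA peaks after mir-9378 were at mir-4962, in an intron of the kinase gene Tlk (233, 173 and 409), and mir-9377, in an intron of Tis11, which encodes an mRNA decay factor (283, 83.4 and 364). At the snoRNA genes the strongest were snoRNA:Or-ACA6, in an intron of egr, the gene of a tumour necrosis factor ligand (376, 154 and 534), snoRNA:Psi18S-176 (242, 154 and 394) and FBgn0263459 (82.7, 74.3 and 157). The pseudogene peaks were CR42875 (230.2, 102 and 339.6), CR33222 (172, 58.6 and 229) and CR31032 (136, 49.5 and 182). The other small RNA genes were snoRNA:Or-ACA9 (114, 66.7 and 181) and sncRNA:CR43701 (81.3, 70.9 and 159). By its name snoRNA:Or-ACA9 is a snoRNA, but its annotated class placed it outside the snoRNA peaks counted here.

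Short sequences of known factors were counted on both strands in the 100 bp on each side of the summit. The 8 sequences do not contain each other. GAGAGA, to which GAGA factor binds, was in 14.7% (10.2 to 20.2%) of the windows, in 13.7% at coding starts and in 13.2% of all peaks, against 8.84% (7.01 to 11%) of the noncoding starts below the threshold. TATAAA, the TATA box, was in 34.1% (27.8 to 40.9%), 32.6%, 31.8% and 24.3% (21.4 to 27.3%) in the same order. CACACA was in 20.9% of the windows, in 20.3% of all peaks and in 21.7% of the noncoding starts below the threshold. None of the 8 was found in 88 of the 211 windows (41.7%), 3 of the 15 strongest among them.

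For TATCGATA the intervals of noncoding and coding starts did not overlap. TATCGATA, the DNA replication-related element (DRE) bound by DREF, was in 1 of the 211 windows (0.474%, 0.012 to 2.61%), in 4.18% (3.3 to 5.2%) at coding starts, in 0.269% away from starts and in 1.7% of all peaks. That window was at the pseudogene CR33222, 21 bp from the coding start of RpS6. Without the peaks that had a coding start within 500 bp, the count was 0 of 175. The E-box CAGCTG was in 7.11% (4.03 to 11.5%), against 12.3% (10.8 to 13.9%) at coding starts, 7.35% away from starts and 9.14% of all peaks. GGTCACACT, core promoter motif 1, was in 0.948% of the windows, 1.76% at coding starts and 0.718% of all peaks, and AGGTGGCG, a core of the CTCF site, was in 1.42% and in 0.798% of all peaks. The B box letters GTTCGANNC were in 2.84% of the windows, all 6 of them at tRNA genes, in 2.47% at coding starts, in 1.94% of all peaks and in 6.33% (4.78 to 8.2%) of the noncoding starts below the threshold. GAGAGA occurred at 24 lncRNA, 5 antisense lncRNA and 2 miRNA peaks and at none of the 22 tRNA peaks, which allows a share of up to 13.6%. A match is a string of letters and does not show that the factor was bound.

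**Figure D4:**
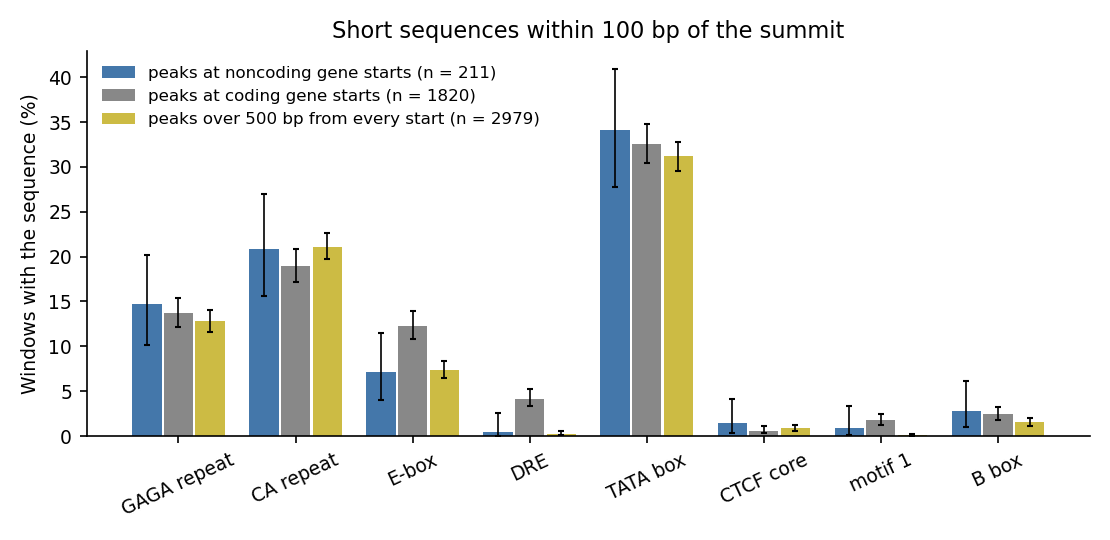
Share of windows of 100 bp on each side of the summit that hold each of the 8 short sequences on either strand, in percent, with exact 95% binomial intervals, for the peaks at noncoding starts, at coding starts and over 500 bp from every start. For DRE the intervals of noncoding starts (0.012 to 2.61%) and coding starts (3.3 to 5.2%) do not overlap. The noncoding value rests on 1 window, and its interval holds the share of all peaks (1.7%) and that away from starts (0.269%).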

How the data were processed

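ChIP-seq peak lists of GFP-tagged CG6813 in embryos (replicates 2 and 3) were used on dm6. Per the deposited file listing, the authors' replicate and pooled lists were the input, background included, of a step that scores irreproducible discovery (IDR), and the thresholded list was its optimal set. The aligner, the peak caller and the IDR threshold were not given in the sources used here. The deposited signal value per region is the caller's own, and its normalization is likewise not stated. It was used to describe and rank peaks. The deposited −log10 q-value was not used for ranking. The deposited summit offset gave summits. Each list holds 30000 regions or fewer and no counts, so depth is unknown.

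Starts came from every transcript of the Ensembl annotation BDGP6.54 (release 115), transposable elements left out, and the split of noncoding RNAs from RefSeq. The annotation also lists 481 mature miRNAs inside their hairpins. They could serve as nearest start (3 peaks) and were left out of counts of genes. Sequence was read from the RefSeq genome of the same build. Regions of the replicates were matched within 200 bp. Python 3.11.15, pandas 2.3.3, numpy 2.4.6 and scipy 1.17.1 were used. The code that assigns summits to starts and matches replicates was tested on simulated data, and the interval code was not. Intervals are exact (Clopper-Pearson, 95%), and the share a count of 0 allows is 3 counts of the total. Both cover counting error only. No test was run, since there is 1 group and peaks are not replicates. The dm3 lists were not analysed here.

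Genes were named by rule: the 15 strongest peaks, the 5 strongest with no coding start within 500 bp, the 3 strongest of each class, and peaks at 78 listed noncoding genes. The members and lists were chosen with earlier results of these data known, lncRNA:CR31840 and lncRNA:Vinr among the listed genes. Coding partners are given for every peak that has one. Alternatives tried were single replicates, the 2506 strongest peaks, other promoter distances, the region's middle as summit, only the most 5′ start, pseudogenes or mature miRNAs left out, peaks with a coding start left out, other matching distances and other windows.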

Additional observations from a re-analysis of the deposited data

How the results depend on the processing

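No paired analysis was possible because there is only 1 group. Some alternatives could change little, such as leaving out the 3 pseudogene peaks. Another was the middle of the region, which at many peaks was at or next to the summit. The count of values that stayed is thus not a measure of robustness. Of 254 recomputed values 208 stayed within their interval or spread (counts within 1.5 times). For the main results alone, without the values by class and by further short sequences, this was 52 of 72. With mature miRNA entries left out, an alternative chosen after seeing the data, all recomputed values did. With pseudogenes left out all did but the share of pseudogenes itself, then 0. Taking the 5012 strongest regions of replicate 3 alone or of replicate 2 alone gave 233 and 196 peaks at noncoding starts, a coding start within 500 bp for 19.3 and 18.4%, lncRNA shares of 57.5 and 68.4%, 8.28 and 6.58% of noncoding genes with a peak, log2 signal differences of -0.07 and -0.08, upstream shares of 55.4 and 56.6% and GAGAGA in 13.7 and 13.3% of windows. Among the 2506 strongest peaks there were 98, with 3.55% of noncoding genes, a log2 difference of 0.08, 96.9% strong in both replicates and a ratio of 2.39. A promoter distance of 200 bp gave 115 peaks, 10.4% with a coding start, 55.7% at lncRNA genes, 3.47% of noncoding genes and a log2 difference of -0.08. One of 1000 bp gave 24.2%, 12.5% of noncoding genes and -0.07. With only the most 5′ start of each gene the difference was -0.13. Windows of 50 and 150 bp on each side gave GAGAGA in 6.64 and 22.3%, since they hold fewer or more bases. The cause of the other shifts was not tested. Depth is unknown, and an unstated signal normalization limits the ratios to the deposited values.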
